A study of Mus musculus with 9 samples.

Results

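The Hox genes are a family of homeobox transcription factor genes. All genes of the deposited read count table whose symbol is Hox followed by a cluster letter from a to d and a number were taken, which gave 39 of 55416 genes, and 28 of the 39 passed the filter on low counts and were tested. RNA-Seq was performed on AdvSca1-SM cells, progenitors of the arterial adventitia that carry Sca1 and descend from smooth muscle, in 9 libraries of 3 groups with 3 replicates each. In the Stem group, the cells were kept in stem cell medium with vehicle. The TGF group received 5 ng/mL TGF-β1, and the Both group received 5 ng/mL TGF-β1 with 50 μM PFI-3, a compound that occupies the bromodomain of Brg1, a chromatin remodeler. All 3 groups received 0.1% DMSO and were harvested after 72 h. The stimulated cells were in low-serum DMEM, whereas the stem cell medium held bFGF and EGF, so the effects of medium and of TGF-β1 between Stem and TGF cannot be told apart. Every library came from cells of young adult SM22α-Cre-YFP mice, in which the SM22α (Tagln) promoter drives Cre and marks cells of smooth muscle origin with YFP. The mice were pooled, and tissue of the carotids, the arch and the descending aorta was combined before YFP+ and Sca1+ cells were sorted and subcultured. The labels do not tie the replicates to separate animals, so p-values measure only the spread between these libraries. A Hox gene measured here can therefore not be assigned to one of these arterial segments, and in such bulk samples fewer cells that express a gene and less RNA per cell cannot be told apart.

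Mammalian Hox genes lie in clusters on separate chromosomes. In RefSeq (GRCm38.p6), promoters of Hoxa genes are listed on chromosome 6, of Hoxb genes on chromosome 11, of Hoxc genes on chromosome 15 and of Hoxd genes on chromosome 2. Within a cluster, genes with low numbers are expressed toward the head and genes with high numbers toward the tail of the embryo, and genes with the same number in different clusters, called paralogs, derive from 1 ancestral gene. Adult fibroblasts and vascular smooth muscle cells retain part of this code, so that their Hox genes carry a record of the body region from which they came. Hox proteins bind DNA together with cofactors of the TALE homeobox class, such as Pbx and Meis proteins, and Polycomb and Trithorax proteins keep Hox genes silent or active.

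The libraries held between 35686291 and 47741128 counts. Counts were scaled to a library of common size by TMM, giving normalized counts, and the limit of detection was set at 3 counts in a library, which corresponds to between 2.63 and 3.26 normalized counts. Hox genes took between 153 and 217 CPM. The 6 hepatocyte markers examined summed to at most 2.63 normalized counts in any library, although the extraction label states that the RNA came from hepatic tissue. Of the 6 AdvSca1-SM markers, Gli1, Ly6a, Cd34, Pdgfra, Scara5 and Tagln, 5 exceeded 3 counts in the Stem group and 6 in each stimulated group, and their sum lay between 54275 and 61839 in Stem, 15239 and 16301 in TGF, and 14416 and 14995 in Both. Pdgfra made up most of this sum, with between 42748 and 48433 in Stem. From Stem to TGF, 4 of the 6 fell by more than 2-fold, against 14.5% of all genes tested, whereas Tagln (log2 fold change 1.42) and Gli1 rose. Gli1 had at most 2.09 normalized counts in Stem and between 10.8 and 12.2 in TGF. The 6 endothelial markers summed to between 115 and 249 normalized counts in Stem, 59.4 and 93.7 in TGF, and 52.7 and 70.1 in Both. Of the 4 tested, Emcn, with a mean of 104.5 in Stem and 8.27 in TGF, and Tek (log2 fold change -1.31) fell by more than 2-fold. Kdr rose (4.97), from at most 2.16 normalized counts in Stem to between 22.7 and 30.3 in TGF, and Vwf did not pass the test. The 6 mature smooth muscle markers summed to between 10606 and 13325 in Stem, 22688 and 25148 in TGF, and 17395 and 18334 in Both. Acta2 and Tagln, which was also on the list above, rose from Stem to TGF, whereas Myh11 (-1.58) and Lmod1 (-0.69) fell and Cnn1 and Smtn did not pass the test, so that the median of the 6 was -0.12. The 6 macrophage and leukocyte markers summed to between 140 and 152 in Stem, 178 and 219 in TGF, and 291 and 307 in Both. Of these, Csf1r (2.65-fold) and Cd68 (3.63-fold) rose from Stem to TGF, and Csf1r and Lyz2 rose from TGF to Both. Adgre1 and Itgam, which define macrophages and were on the same list, were at 0 counts in every group, as was the Schwann cell gene Sox10, and the 5 adipocyte markers summed to at most 4.35. The part of these marker differences in the Hox results was not tested.

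AdvSca1-SM cells expressed genes of clusters a, b and c, mainly from paralog groups 4 to 10, and almost none of cluster d. To compare levels between genes, counts were divided by exon length (RPKM, CPM on TMM-scaled libraries divided by the kilobases of exon). The highest mean level over the 9 libraries was that of Hoxb9, a gene of the thoracic body region, at 7.24 RPKM. Hoxa5, a regulator of lung and upper thoracic skeletal development, followed at 7.09, Hoxb4, known for its role in blood stem cell expansion, at 6.23, and Hoxa7 at 5.70 RPKM. Hoxc10, Hoxc6, Hoxb7, Hoxb6 and Hoxc8 lay between 4.41 and 5.05 RPKM. These were moderate levels. The median of the 28 tested Hox genes was 1.97 RPKM against 3.30 RPKM over the 14843 tested genes with a known length, and Hoxb9 exceeded 67.6% of those genes.

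**Figure D1:**
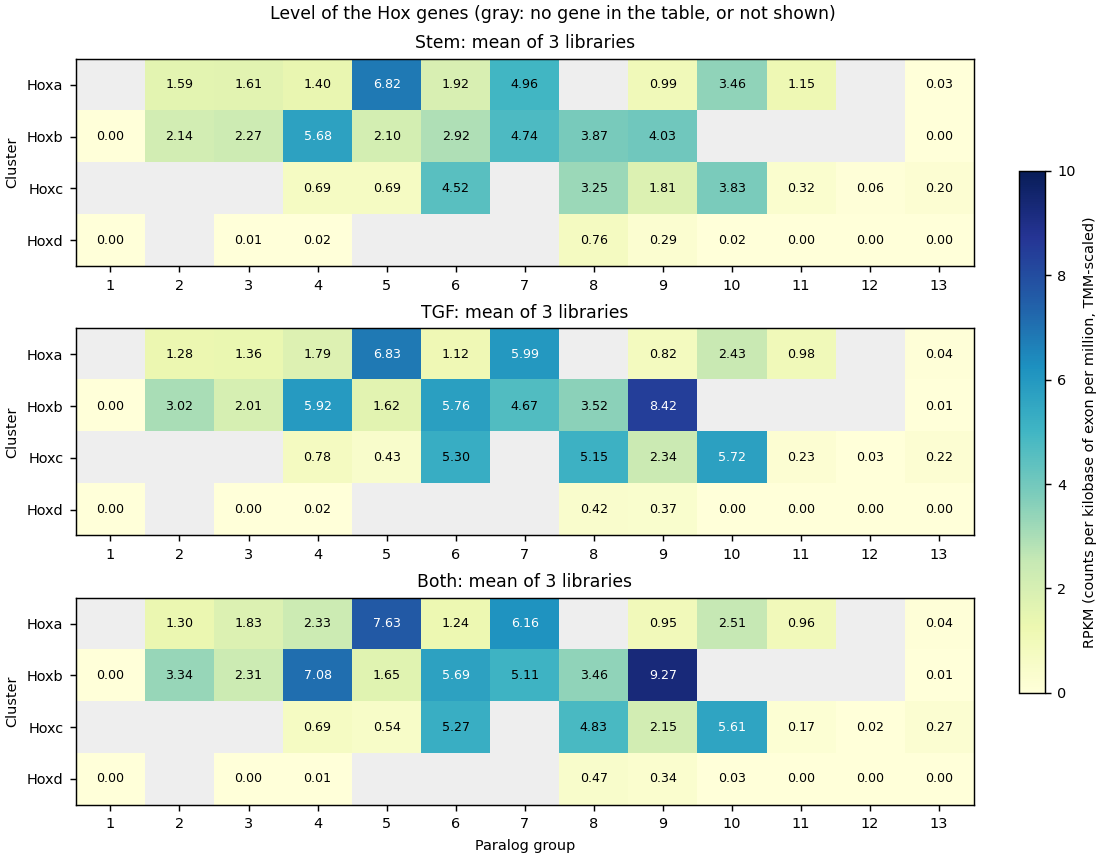
Mean RPKM (3 libraries) of the Hox genes, with clusters in rows, paralog groups in columns and 1 panel per group; gray cells mark positions without a gene in the table or not reported here. Levels are concentrated in paralog groups 4 to 10 of clusters a, b and c, and Hoxb9 rises from 4.03 RPKM in Stem to 8.42 in TGF and 9.27 in Both.

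Toward the ends of the clusters the levels were lower. Hoxa11, a gene of the forearm and uterus, had a mean of 1.03 RPKM, Hoxc11 0.24 RPKM and Hoxc13, a hair and nail gene, 0.23 RPKM. The 11 genes that were not tested were Hoxa13, Hoxb1, Hoxb13, Hoxc12, Hoxd1, Hoxd3, Hoxd4, Hoxd10, Hoxd11, Hoxd12 and Hoxd13. Of these, Hoxd1, Hoxd11 and Hoxd12 had 0 counts in all 9 libraries, which allows up to 3 counts per library, and 7 of the 11 never exceeded 3 counts. The other 4, Hoxa13, Hoxc12, Hoxd4 and Hoxd10, exceeded 3 counts in at least 1 library, and their highest values lay between 4.06 and 5.41 normalized counts. The most posterior genes, which pattern digits, the genital region and the tail, were thus at or near the limit of detection, with Hoxc13 as the exception. In cluster d, 2 of 9 genes were tested, Hoxd8 at 0.55 RPKM and Hoxd9 at 0.34 RPKM. Hoxd3 and Hoxd4 share 62.3% and 52.3% of their exon length with other genes on the same strand in the GENCODE annotation of GRCm38, so reads there could have been left uncounted or assigned to a neighbor.

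By cluster, the summed level in the Stem group was 24.3 ± 2.60 RPKM (SD, n = 3) for cluster a, 27.8 ± 3.85 for cluster b, 15.4 ± 2.02 for cluster c and 1.10 ± 0.205 for cluster d. In the TGF group the sums were 23.3 ± 0.563, 35.0 ± 1.08, 20.2 ± 0.801 and 0.809 ± 0.0577 RPKM, in the same order. In the Both group they were 25.6 ± 2.21, 37.9 ± 2.47, 19.5 ± 1.55 and 0.852 ± 0.0369 RPKM. Per library, the normalized counts of cluster b were 3311, 2409 and 3075 in Stem, 3716, 3494 and 3699 in TGF, and 4137, 3695 and 4073 in Both. Those of cluster c were 1664, 1290 and 1609 in Stem, 2065, 1922 and 1988 in TGF, and 2072, 1778 and 1927 in Both. Those of cluster d were 95.3, 121 and 136 in Stem, 76.6, 85.2 and 84.9 in TGF, and 82.8, 86.9 and 90.4 in Both. Clusters b and c were thus higher in every TGF and Both library than in every Stem library, cluster d was lower, and cluster a overlapped between the groups. With total counts in place of TMM, clusters b and c overlapped as well: Stem replicate 1 had 3576 in cluster b against 3385 in TGF replicate 2, and 1796 in cluster c against 1742 in Both replicate 2, whereas cluster d did not overlap. The sums were made over chosen genes and were not tested. From Stem to TGF, the log2 fold change was positive for 4 of the 8 tested genes of cluster b and for 6 of 8 in cluster c. Mean normalized counts of Hoxb9 went from 427 to 893 and of Hoxb6 from 236 to 466, against 2932 to 3636 for all of cluster b. In cluster d, Hoxd8 went from 85.5 to 47.0, whereas Hoxd9, which did not pass the test, went from 25.8 to 32.5. Stem replicate 2 had the lowest sum of its group in clusters a, b and c.

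**Figure D2:**
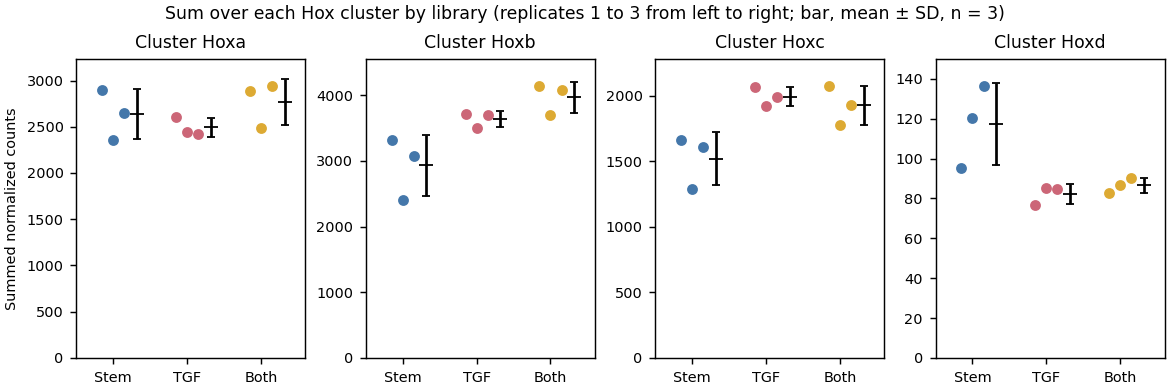
Normalized counts summed over each Hox cluster (vertical axis) in the 9 libraries; points are replicates 1 to 3 from left to right within a group and bars show the mean ± SD (n = 3). Clusters b and c lie higher and cluster d lower in TGF and Both than in Stem with this TMM scaling (b and c overlap with total counts), and cluster a overlaps between groups.

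By paralog group, the summed level in Stem ranged from 0.0587 RPKM in group 12 to 9.70 RPKM in group 7. Paralog group 9 summed to 7.12 ± 0.750 RPKM in Stem, 12.0 ± 0.208 in TGF and 12.7 ± 0.412 in Both (SD, n = 3). Its share of all Hox counts went from 12.0% ± 0.602 to 16.4% ± 0.127 and 16.5% ± 0.551. Most of this was Hoxb9. From Stem to TGF, mean normalized counts went from 861 to 1348 for the group and from 427 to 893 for Hoxb9. Those of Hoxa9 went from 227 to 188, of Hoxc9 from 182 to 235 and of Hoxd9 from 25.8 to 32.5. Paralog group 3 went from 11.0% ± 0.799 of all Hox counts in Stem to 8.38% ± 0.347 in TGF and 9.80% ± 0.0442 in Both. Across the 28 tested genes, the log2 fold change from Stem to TGF and the paralog number had a Pearson correlation of -0.04 and a Spearman correlation of -0.04. From TGF to Both the correlations were -0.31 and -0.33. Genes share these libraries and are not independent replicates, so these values are descriptions.

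From Stem to TGF, Hox genes moved in both directions, and mostly by less than 2-fold. A gene was called where edgeR's quasi-likelihood test gave an adjusted p (Benjamini-Hochberg over 14879 genes) under 0.05, and a second, stricter call also required a change of more than 2-fold. By the stricter call, 1 of 28 Hox genes rose and 0 fell, against 25.1% of all genes tested called in either direction. Without the fold minimum, 13 of 28 were called, or 46.4%, against 75.0% of all genes tested. Of the 28, 8 rose, against 37.3% of all genes tested, and 5 fell, against 37.7%, whereas with total counts in place of TMM the split was 6 higher and 7 lower. At an unadjusted p below 0.05 there were 14. The libraries of the groups did not overlap for 14 of 28 Hox genes, against 76.8% of all genes tested. The median log2 fold change of the 28 genes was 0.03, and that of all genes was -0.003. The 95% interval of the log2 fold change lay within -1 and 1 for 23 of the 28.

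Hoxb9 (ENSMUSG00000020875) rose most. Its normalized counts were 491, 365 and 425 in Stem, 902, 883 and 893 in TGF, and 984, 949 and 1015 in Both. All TGF and Both libraries were thus above all Stem libraries, and the TGF libraries were within 20 normalized counts of each other. The log2 fold change from Stem to TGF was 1.06 (2.09-fold, 95% interval 0.88 to 1.25, edgeR adjusted p = 2.04e-07). The rise was called, without the fold minimum, in each of 17 alternatives. TREAT, which tests against 2-fold itself, is not among these 17 and called 0 Hox genes from Stem to TGF. The rise was just under 2-fold with total counts in place of TMM, at 0.94, and without Stem replicate 2, at 0.97.

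Hoxb6, a gene of the middle of the axis, had 273, 199 and 237 normalized counts in Stem, 482, 469 and 446 in TGF, and 529, 385 and 467 in Both. The groups Stem and TGF did not overlap, and the log2 fold change was 0.98 (1.97-fold, 95% interval 0.70 to 1.25, edgeR adjusted p = 1.97e-05), which passed 2-fold without Stem replicate 1 or without TGF replicate 3. Hoxb7 and Hoxb8, which lie between Hoxb6 and Hoxb9, did not pass the test, at -0.02 and -0.14. Hoxc8, a gene of the thoracic spine and of forelimb motor neurons, had 412, 318 and 408 in Stem, 603, 587 and 613 in TGF, and 601, 542 and 549 in Both. The log2 fold change from Stem to TGF was 0.66 (95% interval 0.47 to 0.86, edgeR adjusted p = 2.89e-05). Hoxc10, a gene of the lumbar region, had 330, 274 and 300 in Stem, 499.6, 406 and 443 in TGF, and 472, 399 and 453 in Both. Its log2 fold change was 0.58 (95% interval 0.36 to 0.80, edgeR adjusted p = 2.28e-04). For Hoxc8 and Hoxc10, too, every stimulated library was above every Stem library. In the GRCm38 annotation, 8.70% of the exon length of Hoxc10 is shared with Hoxc5 on the same strand, and Hoxc5 fell.

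Among the anterior genes, Hoxb2, which patterns the hindbrain, had 373, 245 and 304 normalized counts in Stem, 429.5, 394 and 479 in TGF, and 492, 449 and 500.3 in Both. The log2 fold change from Stem to TGF was 0.50 (edgeR adjusted p = 0.00368), and 27.3% of its exon length is covered by Hoxb3os on the opposite strand. Hoxa7 had 624, 526 and 614 in Stem, 768, 718 and 641 in TGF, and 793, 648 and 747 in Both. Its log2 fold change was 0.27 (edgeR adjusted p = 0.0218), and 20.4% of its exon length is covered by Hoxaas3 on the opposite strand. Hoxc9, a paralog of Hoxb9, had 190, 146 and 209 in Stem, 245, 234 and 225 in TGF, and 247, 205 and 192 in Both. Its log2 fold change was 0.37 (edgeR adjusted p = 0.0256). The rises of Hoxa7 and Hoxc9 were the smallest, and neither was called without Stem replicate 2 (log2 fold change 0.20, adjusted p = 0.0652, and 0.24, adjusted p = 0.0855), without TGF replicate 1 (0.22, adjusted p = 0.0812, and 0.34, adjusted p = 0.0679) or with total counts (0.15, adjusted p = 0.206, and 0.25, adjusted p = 0.133).

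**Figure D3:**
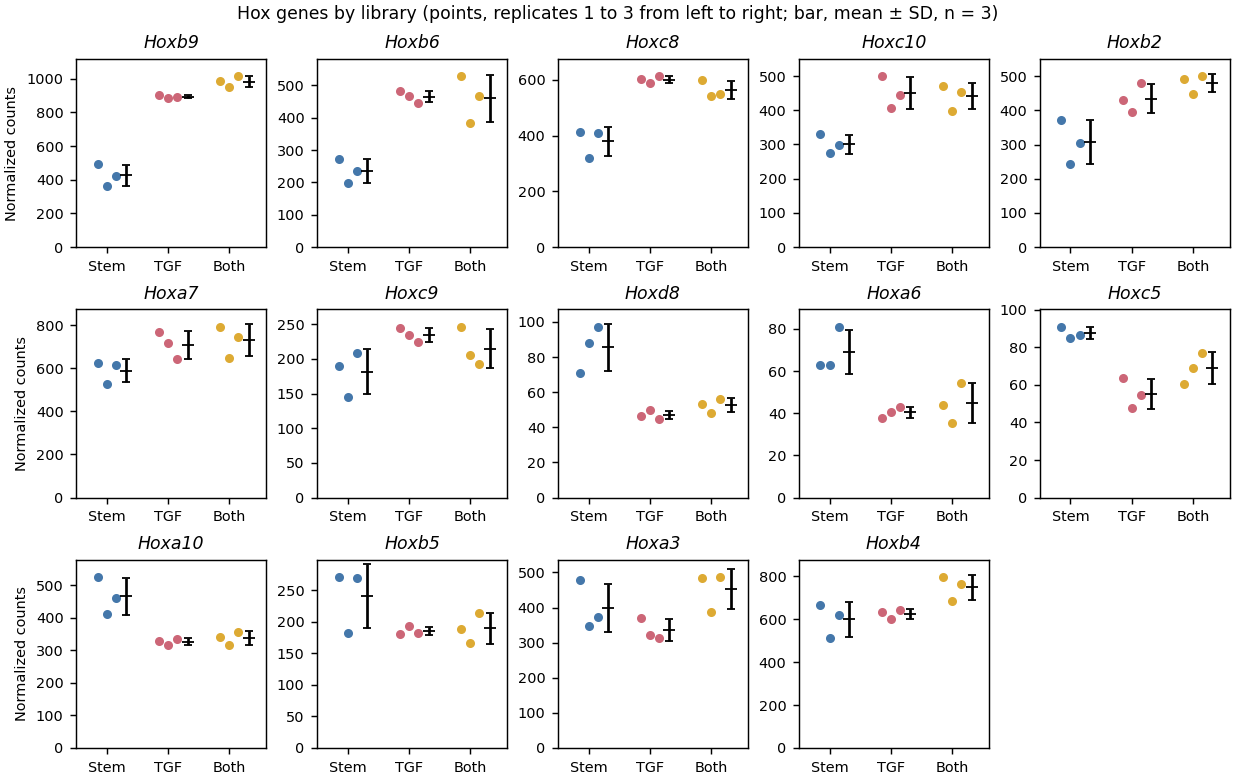
Normalized counts (vertical axis, each panel from 0) of 12 of the 13 Hox genes called between Stem and TGF and of Hoxa3 and Hoxb4; points are replicates 1 to 3 from left to right, bars the mean ± SD (n = 3). Hoxb9 lies between 365 and 491 in Stem and between 883 and 1015 in TGF and Both, whereas Hoxa10 lies between 412 and 526 in Stem and between 315 and 357 in TGF and Both.

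Hoxa10, a gene of the lumbar region that is also needed in the uterus, fell. It had 526, 412 and 460 normalized counts in Stem, 329, 315 and 336 in TGF, and 340, 315 and 357 in Both. All Stem libraries were above all others, and the log2 fold change from Stem to TGF was -0.51 (0.702-fold, 95% interval -0.71 to -0.31, edgeR adjusted p = 2.79e-04). Hoxb5, a gene of the neck and shoulder region, had 271, 183 and 269 in Stem, 181, 193 and 183 in TGF, and 189, 166 and 214 in Both. Stem replicate 2 lay among the TGF libraries, and the log2 fold change was -0.38 (edgeR adjusted p = 0.0341). It was not called without Stem replicate 1 (adjusted p = 0.120), Stem replicate 3 (0.134), TGF replicate 1 (0.0884), TGF replicate 2 (0.0581) or TGF replicate 3 (0.0876). The other 3 that fell had fewer than 100 normalized counts on average and were named after their values were seen. Hoxd8 fell by 0.86 on the log2 scale (edgeR adjusted p = 3.26e-04), from 71.2, 88.0 and 97.4 normalized counts in Stem to 46.4, 49.7 and 44.9 in TGF. Hoxa6 fell by 0.77 (adjusted p = 0.00284), and Hoxc5 fell by 0.66 (adjusted p = 0.00182). These 3 genes did not overlap between Stem and TGF.

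The 250 bases upstream of a start were examined in the RefSeq promoter table (GRCm38.p6), which held 22 of the 39 Hox genes and 13 of the 28 tested; Hoxb9, Hoxb6, Hoxc8 and Hoxc10 were not among them. Shown are Hoxa10, which fell most among the abundant genes, at both of its listed starts, Hoxa9, a paralog of Hoxb9, and Hoxa5, the highest gene with an entry. All are on the minus strand of chromosome 6 and are written in the direction of transcription, ending at the base before the start. Capitals mark CpG dinucleotides, the sites at which promoters can be methylated.
Hoxa10, distal start (chr6:52240855-52241104): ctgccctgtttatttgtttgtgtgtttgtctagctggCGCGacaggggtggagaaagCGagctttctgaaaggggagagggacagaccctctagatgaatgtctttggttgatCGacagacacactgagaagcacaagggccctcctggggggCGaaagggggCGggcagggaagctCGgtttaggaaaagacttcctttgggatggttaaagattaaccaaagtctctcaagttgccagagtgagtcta
Hoxa10, proximal start (chr6:52234940-52235189): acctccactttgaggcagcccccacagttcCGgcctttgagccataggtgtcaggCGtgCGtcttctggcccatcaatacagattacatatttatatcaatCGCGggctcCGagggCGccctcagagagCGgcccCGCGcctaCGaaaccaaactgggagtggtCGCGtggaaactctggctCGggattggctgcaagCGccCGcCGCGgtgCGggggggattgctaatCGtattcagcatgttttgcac
Hoxa9 (chr6:52227371-52227620): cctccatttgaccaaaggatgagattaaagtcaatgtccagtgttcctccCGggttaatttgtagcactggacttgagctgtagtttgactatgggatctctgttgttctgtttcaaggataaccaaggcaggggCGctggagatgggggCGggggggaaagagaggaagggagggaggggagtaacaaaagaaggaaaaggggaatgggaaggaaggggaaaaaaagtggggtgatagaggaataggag
Hoxa5 (chr6:52204588-52204837): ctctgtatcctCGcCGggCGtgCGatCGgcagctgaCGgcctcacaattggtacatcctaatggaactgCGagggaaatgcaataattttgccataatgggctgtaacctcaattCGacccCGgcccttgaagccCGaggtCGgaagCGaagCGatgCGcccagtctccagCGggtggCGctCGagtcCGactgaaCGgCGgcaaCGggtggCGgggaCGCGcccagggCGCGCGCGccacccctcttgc
The distal Hoxa10 window held 7 CpGs and the proximal one 20, the Hoxa9 window 3 and the Hoxa5 window 28. The 24 Hox windows ranged from 2 to 35 with a median of 12.5, against a median of 6 over all 32851 windows of the same length. The window with 35 belonged to Hoxa13, which was near the limit of detection, so CpG-rich starts were not limited to expressed genes. The letters TATAAA, the core of the TATA box, were found on either strand in the proximal Hoxa10 window and in 4 of 24 Hox windows, against 12.4% of all windows. The letters CAGAC, which can be bound by SMAD proteins, occurred at 2 positions of the distal Hoxa10 window and in 7 of 24 Hox windows, against 42.2% of all windows. The letters TGATTTAT, a joint binding sequence of Pbx and Hox proteins, occurred in 0 of 24 Hox windows and in 0.837% of all windows. These matches describe letters and were not tested as sites.

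The remaining 10 of the 19 Hox genes with at least 100 normalized counts did not pass the test from Stem to TGF. Hoxa5 had 554, 481 and 546 normalized counts in Stem, 543, 519 and 522 in TGF, and 593, 526 and 650 in Both, with a log2 fold change from Stem to TGF of 0.00 (95% interval -0.18 to 0.18). Hoxb7 had 276, 315 and 313 in Stem, 323, 288 and 280 in TGF, and 323, 304 and 348 in Both, with a log2 fold change of -0.02 (95% interval -0.22 to 0.17). Hoxb4 had 669, 512 and 619 in Stem, 632, 601 and 644 in TGF, and 798, 684 and 765 in Both, with a log2 fold change of 0.06 (95% interval -0.14 to 0.26). For these 3 genes the intervals lay between -0.22 and 0.26. Hoxc6 had 520, 359 and 465 in Stem, 526, 518 and 534 in TGF, and 580, 455 and 533 in Both. Hoxa9 had 225, 246 and 210 in Stem, 205, 163 and 195 in TGF, and 217, 189 and 246 in Both, with Stem and TGF not overlapping and an adjusted p of 0.0583. Hoxb8 had 495, 309 and 458 in Stem, 393, 340 and 413 in TGF, and 404, 351 and 371 in Both. Among the Stem libraries, replicate 2 was the lowest in Hoxc6 and Hoxb8 and the highest in Hoxa9. Hoxb3 had 463, 283 and 449 in Stem, 372, 324 and 358 in TGF, and 418, 405 and 392 in Both, and 52.9% of its exon length is covered by Hoxb3os on the opposite strand. Hoxa4 had 128, 58.7 and 88.7 in Stem, 104, 115 and 134 in TGF, and 154, 144 and 161 in Both. Hoxa2 had 151, 92.4 and 105 in Stem, 78.8, 115 and 87.9 in TGF, and 112.5, 88.8 and 84.3 in Both. Hoxa3 is described with PFI-3. Without Stem replicate 2, Hoxb3 (log2 fold change -0.37), Hoxb8 (-0.31) and Hoxa3 (-0.34) were called lower in TGF, without Stem replicate 1, Hoxa4 (0.68) and Hoxc6 (0.36) were called higher, and without TGF replicate 1, Hoxa9 (-0.33) was called lower. With total counts, Hoxa3 (-0.37) and Hoxa9 (-0.39) were called lower. Without the filter on low counts, Hoxa3 (adjusted p = 0.0251), Hoxa4 (0.0395) and Hoxc6 (0.0150) were called, and with a mean of at least 10 counts as the filter, Hoxa9 (0.0490).

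Paralogs of the same group moved in opposite directions in groups 6, 8 and 10. Normalized counts of Hoxc10 relative to Hoxa10, both of which act in the lumbar region, had a mean log2 ratio of -0.63 ± 0.0424 in Stem, 0.46 ± 0.129 in TGF and 0.39 ± 0.0748 in Both (SD, n = 3). The ratio of Hoxb6 to Hoxa6 went from 1.77 ± 0.305 to 3.53 ± 0.149 and 3.37 ± 0.247, and that of Hoxc8 to Hoxd8 from 2.15 ± 0.348 to 3.68 ± 0.106 and 3.42 ± 0.118. A ratio within a library does not depend on how libraries are scaled, and in these 3 pairs no Stem library reached the ratio of any stimulated library. In group 9, the ratio of Hoxb9 to Hoxa9 went from 0.91 ± 0.293 to 2.26 ± 0.158 and 2.18 ± 0.138, and that of Hoxb9 to Hoxc9 from 1.24 ± 0.186 in Stem to 1.93 ± 0.0571 in TGF and to 2.00, 2.21 and 2.40 in the Both libraries. The pairs were chosen after their values were seen and were not tested.

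Between TGF and Both, which asks what PFI-3 added to TGF-β1, no Hox gene passed either call. The edgeR counts were 0 of 28 past 2-fold, against 0.632% of all genes tested, and 0 of 28 without the fold minimum, against 8.92% of all genes tested (3.54% higher and 5.38% lower in Both). At an unadjusted p below 0.05 there were 2, and DESeq2 called 1. The log2 fold changes lay between -0.49 (Hoxc11) and 0.43 (Hoxa3), with a median of 0.05 against -0.002 for all genes. The 95% interval lay within -1 and 1 for 27 of 28 genes, the exception being Hoxc11, at -1.10 to 0.12. A change of 2-fold or more was thus outside the interval for those 27, and smaller changes lay within it. The groups did not overlap for 5 of 28 genes, Hoxa3, Hoxa4, Hoxb3, Hoxb4 and Hoxb9, all higher in Both, against 32.7% of all genes tested.

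**Figure D4:**
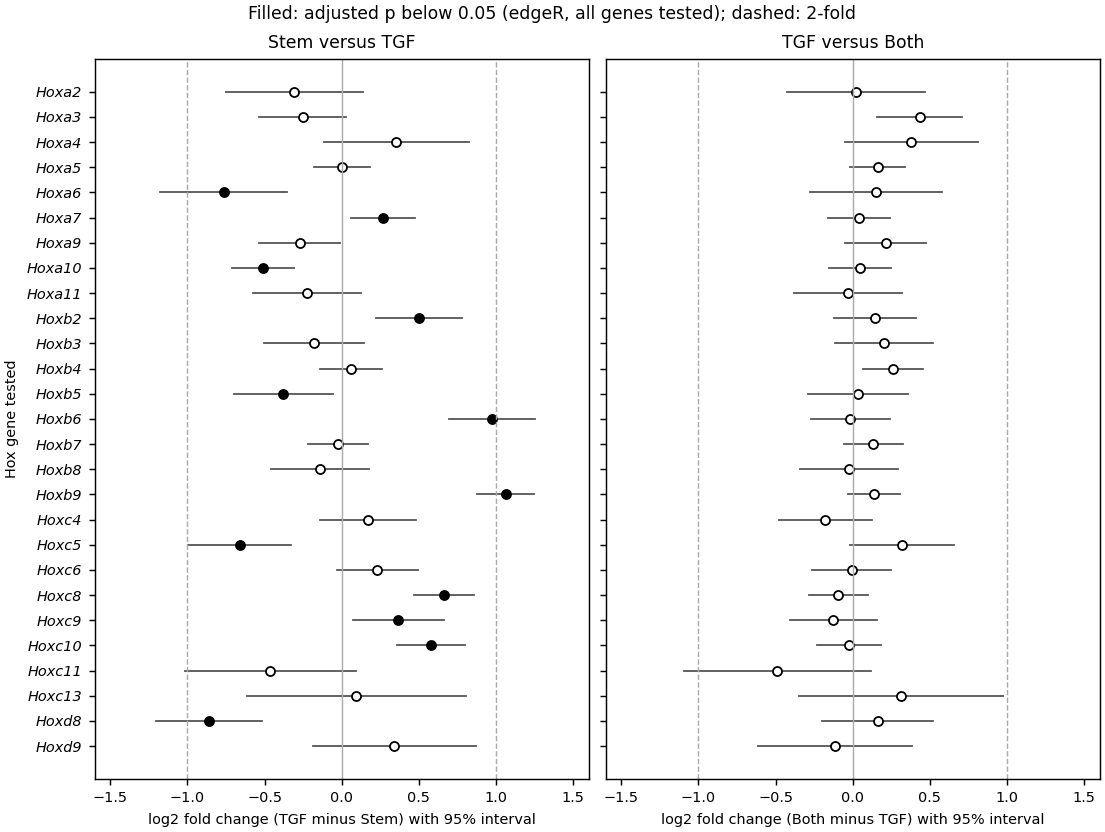
log2 fold change (horizontal axis) with its 95% interval for 27 of the 28 tested Hox genes from Stem to TGF (left) and from TGF to Both (right); filled points have an adjusted p below 0.05 (edgeR), dashed lines mark 2-fold. On the left 12 points are filled and spread to both sides, whereas on the right 0 are filled and only the interval of Hoxc11 crosses a dashed line.

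The largest positive log2 fold change with PFI-3 was that of Hoxa3, which is needed for the thymus, the parathyroid and the carotid body. Hoxa3 had 477, 348 and 373 normalized counts in Stem, 371, 323 and 314 in TGF, and 484, 386 and 487 in Both. Every Both library was above every TGF library, and the log2 fold change was 0.43 (1.35-fold, 95% interval 0.16 to 0.71, edgeR adjusted p = 0.0546). Hoxb4 was next among the genes at an unadjusted p below 0.05, with a log2 fold change of 0.26 (1.20-fold, 95% interval 0.06 to 0.45, edgeR adjusted p = 0.0972). Hoxa3 was called without the filter on low counts (adjusted p = 2.00e-04), with DESeq2 (adjusted p = 0.0183), in a fit of only the 6 libraries compared (0.0124) and without Stem replicate 1 (0.0136), Stem replicate 2 (0.0202) or Both replicate 2 (0.0265), and Hoxb4 without the filter (0.0132), in that fit of 6 libraries (0.0167) and without Stem replicate 1 (0.0450) or 2 (0.0170). Over the alternatives, the adjusted p ran from 2.00e-04 to 0.187 for Hoxa3 and from 0.0132 to 0.299 for Hoxb4. In Hoxa3, 25.4% of the exon length is covered by antisense genes. For the genes that rose from Stem to TGF, the log2 fold change from TGF to Both was 0.14 for Hoxb9 (95% interval -0.03 to 0.31), -0.01 for Hoxb6 (-0.27 to 0.24), -0.09 for Hoxc8 (-0.28 to 0.10) and -0.02 for Hoxc10 (-0.23 to 0.18). For Hoxa10, which fell, it was 0.05 (-0.16 to 0.25).

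Between Stem and Both, which shares its libraries with the other comparisons, 1 of 28 Hox genes passed 2-fold, against 22.8% of all genes tested (9.55% higher in Both), and 14 of 28 were called without the fold minimum, against 73.3% (36.6% higher and 36.6% lower). The libraries did not overlap for 14 of 28, against 74.7% of all genes tested. The gene past 2-fold was Hoxb9, with a log2 fold change of 1.20 (2.30-fold, 95% interval 1.02 to 1.38, edgeR adjusted p = 6.40e-08). Of the 14, 9 were higher in Both (among them Hoxa4, Hoxa7, Hoxb2, Hoxb4, Hoxb6, Hoxb9, Hoxc8 and Hoxc10) and 5 were lower (Hoxa6, Hoxa10, Hoxb5, Hoxc11 and Hoxd8), and with total counts in place of TMM the split was 7 higher and 6 lower. Hoxa4 had a log2 fold change of 0.73 (edgeR adjusted p = 0.00671), Hoxb4 of 0.32 (adjusted p = 0.00683, or 0.21 and 0.0815 with total counts) and Hoxc11 of -0.95 (adjusted p = 0.00620). For these 3, neither step alone, Stem to TGF or TGF to Both, passed the test in the main fit. Among the alternatives, Hoxa4 was called from TGF to Both with only the 6 libraries compared (edgeR adjusted p = 0.0460). Other alternative calls of Hoxa4 and Hoxb4 are given above. Hoxc11 was weakly expressed, with 26.2, 23.9 and 30.3 normalized counts in Stem, 21.6, 15.2 and 21.5 in TGF, and 18.0, 12.8 and 10.5 in Both. Hoxb5 was not called (adjusted p up to 0.187) in 8 of 17 alternatives, Hoxa6 was not called without Stem replicate 3 (adjusted p = 0.0518), and Hoxa7 was not called with total counts (adjusted p = 0.0891). Leaving out 1 library gave between 1 and 3 genes past 2-fold. Hoxa4 and Hoxb6 were added without Stem replicate 1, Hoxb6 without Both replicate 2, and Hoxc11 without Stem replicate 2 or Both replicate 1.

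Replicates carrying the number 2 were low in Hox genes in every group. Stem replicate 2 was the lowest of its group in 21 of 28 tested Hox genes, against 39.2% of all genes tested, TGF replicate 2 in 15 of 28, against 36.9%, and Both replicate 2 in 19 of 28, against 36.4%. Hox genes took 208, 153 and 193 CPM in Stem, 199, 186 and 194 in TGF, and 217, 191 and 215 in Both. The part of this in the Hox results was not tested beyond leaving out each library.

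Several genes of the TALE class, which holds cofactors of Hox proteins, changed by more than 2-fold. The list takes in Tgif1 and Tgif2, which belong to this class and are not counted here as partners of Hox proteins. Of 11 TALE genes, all tested, 2 rose and 3 fell by more than 2-fold from Stem to TGF, Tgif1 and Tgif2 among them. Without the fold minimum 7 (63.6%) were called. The shares of all genes tested were 25.1% past 2-fold and 75.0% without the minimum. Meis1, the partner of many middle and posterior Hox proteins, had between 3314 and 3456 normalized counts in Stem, 1285 and 1332 in TGF, and 1529 and 1640 in Both. It fell by 1.38 on the log2 scale (edgeR adjusted p = 2.84e-11) and rose by 0.29 from TGF to Both (adjusted p = 0.00118). Tgif1, which restrains TGF-β signaling as a corepressor of SMAD proteins, rose by 1.12 (adjusted p = 2.82e-10) and fell by 0.22 with PFI-3 (adjusted p = 0.00637). Tgif2 fell by 1.35 (adjusted p = 4.39e-06). The Stem, TGF and Both libraries did not overlap for Meis1 or Tgif1, and both the fall of Meis1 and the rise of Tgif1 were smaller in Both than in TGF. With PFI-3, 3 of the 11 TALE genes were called, Meis1 and Tgif1 among them, against 8.92% of all genes tested, and 0 passed 2-fold, against 0.632%.

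**Figure D5:**
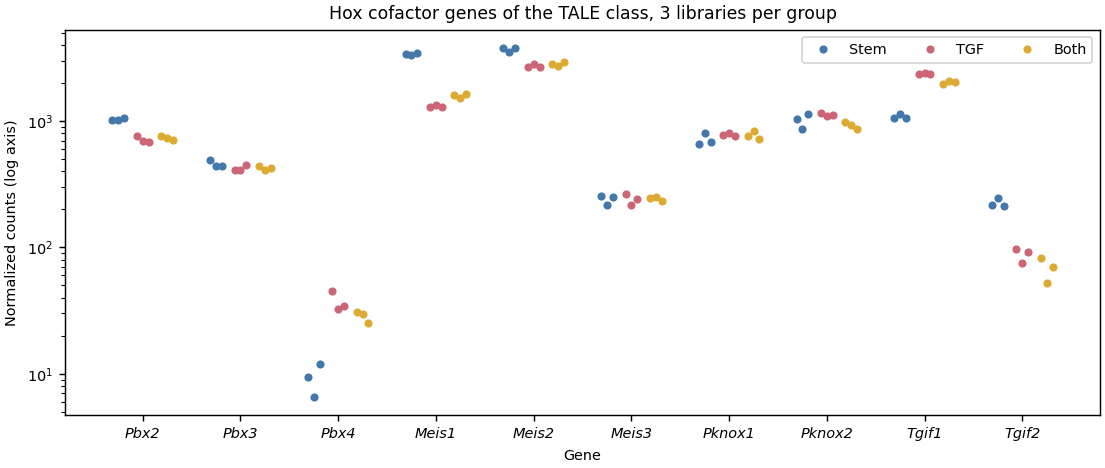
Normalized counts (log axis) of 10 of the 11 listed genes of the TALE class in the 3 libraries of each group. Meis1 lies between 3314 and 3456 in Stem, between 1285 and 1332 in TGF and between 1529 and 1640 in Both, and Tgif1 is higher in TGF than in Stem.

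Of 19 Polycomb genes, 3 fell by more than 2-fold from Stem to TGF and 0 rose. Without the fold minimum 12 fell and 2 rose, together 73.7% against 75.0% of all genes tested, of which 37.7% fell, and 25.1% of all genes passed 2-fold. The median log2 fold change of the list was -0.44. The largest fall was in Cbx7 (-1.74, edgeR adjusted p = 2.54e-08), a chromodomain protein that reads H3K27me3, followed by Jarid2 (-1.20, adjusted p = 1.95e-06) and Cbx2 (-1.08, adjusted p = 7.34e-05). Among the catalytic members, Rnf2 fell by 0.46 (adjusted p = 7.30e-07), Ezh1 by 0.38 (adjusted p = 3.11e-05) and Ezh2 by 0.22 (adjusted p = 0.0404), and Ring1 rose by 0.16 (adjusted p = 0.0339). Suz12 and Eed, which form a complex with Ezh2, were at -0.03 (adjusted p = 0.539) and -0.00 (adjusted p = 0.986). Of 13 Trithorax-type genes, 0 passed 2-fold, and 9 fell and 1 rose without the fold minimum, together 76.9% against 75.0% of all genes tested. Kmt2a, the methyltransferase that maintains Hox expression, fell by 0.83 (adjusted p = 1.21e-07), and Kmt2c on the same list fell by 0.95 (adjusted p = 1.33e-08). With PFI-3, edgeR called 0 of the 19 Polycomb genes and 0 of the 13 Trithorax-type genes, against 8.92% of all genes tested. At an unadjusted p below 0.05 there were 2 Polycomb and 3 Trithorax-type genes.

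Of 18 antisense and long noncoding RNAs of the Hox clusters, 11 were in the table and 7 were tested. From Stem to TGF, 3 of the 7 were called, or 42.9%, against 75.0% of all genes tested, and 1 passed 2-fold, against 25.1%. All 7 had fewer than 100 normalized counts, and those called were named after their values were seen. Exons of Hoxaas2 and Hoxa11os overlap those of Hoxa3 and Hoxa11 on the opposite strand. Hoxaas2 was 57.6, 76.1 and 71.4 normalized counts in Stem and 33.4, 36.5 and 18.6 in TGF, a log2 fold change of -1.21 (edgeR adjusted p = 7.25e-04). Hotairm1 rose by 0.78 (adjusted p = 0.0158). Hoxa11os fell by 0.58 (adjusted p = 0.0430). Hotair, Hottip and Haglr were at or near 0 counts. The 6 miRNA hairpins of the Hox clusters in the table, of the Mir10, Mir196 and Mir615 families, had 0 counts in all 9 libraries, which allows up to 3 counts per library. Mir196b shares 85 bases with exons of Hoxa9 on the same strand, so reads there could have been left uncounted or assigned to Hoxa9.

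Genes that flank the Hox clusters were examined for comparison. Of 14 flanking genes, 13 were in the table and 8 were tested, and 0 passed 2-fold from Stem to TGF, against 25.1% of all genes tested. Without the fold minimum 5 rose and 1 fell, against 37.3% and 37.7% of all genes tested. Together they made 75.0%, the same share as of all genes tested. Cbx5 rose by 0.80 (edgeR adjusted p = 1.06e-08) and Lnpk by 0.88 (adjusted p = 3.04e-06), whereas Calcoco1 fell by 0.79 (adjusted p = 1.52e-08). With PFI-3, 1 of the 8 was called, against 8.92% of all genes tested. It was Cbx5, which fell by 0.26 (adjusted p = 0.00436). Evx1 and Evx2, homeobox genes at the posterior ends of the clusters, were at or near 0.

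Retinoid signals and caudal genes set Hox expression in the embryo. The list of 16 genes for them also held Gdf11 and Mstn, which are neither retinoid nor caudal genes. Of the 16, 10 were tested, Gdf11 among them. From Stem to TGF, 1 rose and 2 fell by more than 2-fold, against 25.1% of all genes tested. Crabp2, a carrier that brings retinoic acid to its receptor, rose from 4.19, 7.61 and 3.25 normalized counts in Stem to 979, 1381 and 1093 in TGF and stood at 346, 601 and 461 in Both. The log2 fold change was 7.81 (edgeR adjusted p = 7.76e-10) from Stem to TGF and -1.30 (adjusted p = 6.05e-04) from TGF to Both. Cyp26b1, an enzyme that degrades retinoic acid, fell by 3.41 (adjusted p = 3.50e-10), from 1468, 1145 and 1356 to 155, 122 and 98.6 normalized counts. On the same list, Aldh1a2 (-0.98), Aldh1a3 (-0.95) and the weakly expressed Crabp1 (-2.09) also fell, whereas Aldh1a1 rose (0.48). Without the fold minimum, 4 of the 10 rose and 4 fell, against 37.3% and 37.7% of all genes tested. With PFI-3, 2 of the 10 were called, both lower, against 8.92%, and 1 passed 2-fold, against 0.632%. Cdx1, Cdx2 and Cdx4, the caudal genes, were at or near 0 counts. Of 39 other regional transcription factor genes, 25 were tested, and 2 rose and 2 fell by more than 2-fold, against 25.1% of all genes tested. With PFI-3, edgeR called 0 of the 25, against 8.92% of all genes tested, with 3 at an unadjusted p below 0.05. Among those past 2-fold was Emx2, a homeobox gene of the urogenital tract and shoulder blade, which fell by 1.12 (adjusted p = 1.15e-08).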

How the data were processed

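For the 9 RNA-Seq libraries, the authors deposited unnormalized read counts for each Ensembl gene. The paper's text names Flexbar, STAR and GRCm39, whereas the submitters' processing notes list HISAT2 2.2.1, SAMtools 1.13 and HTSeq 0.11.3 with GRCm39; which were used was not settled. How the counting used strand and multiply aligned reads is not given in the sources used here, so overlapping and antisense genes carry that uncertainty.

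The main test was edgeR 4.0.16 in R 4.3.3 (filterByExpr, TMM, glmQLFit and glmQLFTest, group as the only term, prior count 0.125), with DESeq2 1.42.0 as an alternative. All 14879 genes passing the filter were fitted together and adjusted by Benjamini-Hochberg. Normalized counts refer to a library of 41184338. Exon lengths for RPKM came from GENCODE on GRCm38, so no gene coordinates are given; promoters are RefSeq's. Intervals are the estimate plus or minus the t quantile times the standard error. The steps were tested on simulated data. Named were Hox genes with at least 100 mean normalized counts or past 2-fold. Of each companion list, at most 3 genes per direction that met both limits were named by rule. Further companion genes, such as Kmt2a, Rnf2, Aldh1a1 and Cbx5, were named outside this rule. The Hox genes and all lists were chosen with earlier results of these data known. The alternatives were DESeq2, its size factors, total counts, no filter, a mean of at least 10 counts, 6 libraries, a replicate block, a prior count of 2, TREAT, and leaving out each library. Values of 1 Hox gene and 1 cofactor gene are not reported here, although counts and sums over the lists include them.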

Additional observations from a re-analysis of the deposited data

How the results depend on the processing

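For the 19 abundant Hox genes, 0 of the alternatives reversed a called direction in any comparison. From Stem to TGF, the 13 calls at an adjusted p below 0.05 ranged from 11 to 14 when 1 library was left out and from 13 to 16 otherwise, but the 1 gene past 2-fold became 0 with total counts in place of TMM and 0 with TREAT, which tests against 2-fold itself, and ran from 0 (without Stem replicate 2) to 2 when 1 library was left out. Total counts moved the median of all genes from -0.003 to -0.12 in this comparison, and the 8 higher and 5 lower Hox genes became 6 higher and 7 lower. From TGF to Both, the 0 genes at an adjusted p below 0.05 became 1 with DESeq2, 2 without a filter, 3 with only the 6 libraries compared and 2 (Hoxa3 and Hoxb4) with the replicate block, and ran from 0 to 2 when 1 library was left out. From Stem to Both, the 1 gene past 2-fold became 2 with total counts and ran from 1 to 3 when 1 library was left out. The cause of these differences was not tested. They are counts of Hox genes alone, without the share of all genes called under each alternative. A change particular to Hox genes can therefore not be read from them. The replicate numbers were not taken as pairs: the labels carry the letters A, B and C in each group but name no shared batch. Deviations from the group means correlated between -0.06 and 0.18 for libraries with the same number and between -0.16 and 0.15 for unlike numbers. For number 2 all were positive, at 0.15 (Stem and TGF), 0.18 (Stem and Both) and 0.12 (TGF and Both). Whether libraries of the same number were made together was not tested. The block gave 16 Hox calls from Stem to TGF in place of 13. Mean Hox levels by cluster moved by less than the SD with total counts, although clusters b and c then overlapped between groups. At this depth, genes at or under 3 counts could not be compared.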
